A study of Mus musculus with 6 samples.

Results

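Snai1, Snai2, Twist1, Twist2, Zeb1, Zeb2, Foxq1, Foxc1, Foxc2 and Prrx1 encode transcription factors that are known for their part in mesenchymal cells, and their mRNA levels were compared between MLO-Y4 cells treated with LIPUS and control cells. MLO-Y4 is an established murine cell line with osteocyte-like features, and LIPUS is low-intensity pulsed ultrasound, a mechanical stimulus that is used to treat fractures. The members were selected by gene symbol among the 53797 genes of the deposited table, when the levels and ratios of these genes in these data were already known, so the values below are a description and not a test. All 10 were found, each on a single line.

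Each group comprised 3 RNA-seq samples. The LIPUS group was stimulated for 20 min at 1.5 MHz and 30 mW/cm2 in pulsed-wave mode, and the transducers of the Control wells were unplugged. Cells of both groups grew on collagen-coated dishes. In its results the paper says that the experiment was repeated and that the 3 RNA samples of a group were independent, while its statistics section excepts the RNA-seq from a statement on independent experiments. Wells of both groups lay in the same plate, and RNA was isolated 30 min after stimulation. The paper describes a control library that stood apart from the others of its group in a principal component analysis, and names leakage of the stimulus into control wells as a possibility, so the Control values may not be those of wholly unstimulated cells. The part of that library and of leakage in the values below was not tested, because the table holds a single FPKM (fragments scaled to exon length and to the number of mapped reads) per gene and group and none for a single library. No SD or interval can therefore be computed here, and no test could be run anew. The authors deposited their own test of the groups, which was not used. Whether a difference is larger than the spread between cultures cannot be read from the FPKM alone. Ratios are given as log2 of the LIPUS FPKM over the Control FPKM, so that negative values are lower with LIPUS. The methods give a single nominal number of reads for all samples, and the depth of each library cannot be read from FPKM.

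Snail proteins (Snai1 and Snai2, the latter also called Slug) are zinc-finger repressors that bind E-boxes, short DNA elements of the form CANNTG, for example in the promoter of the E-cadherin gene Cdh1. Zeb proteins bind similar elements through clusters of zinc fingers, Twist proteins bind E-boxes as dimers with E proteins through a basic helix-loop-helix (bHLH) domain, and Foxq1, Foxc1 and Foxc2 carry a forkhead domain. In embryos and in epithelial tumours these factors drive or accompany the epithelial-mesenchymal transition. In skeletal tissue they mark mesenchymal precursors, with Twist proteins known as brakes on Runx2, Foxc1 and Foxc2 needed for skeletal patterning, and Prrx1, a paired-related homeodomain factor, known from limb bud mesenchyme.

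The samples had a largely mesenchymal profile, in that 21 of the 24 mesenchymal genes listed below were measured. Cdh2 and Thy1 were listed at 0 in both groups, and Cdh11 stayed below 1 FPKM. Of 6 osteoblast and mesenchymal markers, all were measured, none was past 2-fold, and 5 had a ratio below 0, as did 50.1% of all measured genes, with a median log2 ratio of -0.21. Vimentin (Vim) was the exception, with 2463 FPKM in Control and 2583 in LIPUS (0.07). The alkaline phosphatase gene Alpl had 293 and 189.7 FPKM (-0.63), Runx2 24.4 and 14.8 (-0.72), the collagen genes Col1a1 891 and 731 (-0.29) and Col1a2 334 and 303 (-0.14), and Spp1 (osteopontin) 4514 and 4158 (-0.12). The summed FPKM of this list was 8519.97 in Control and 7979 in LIPUS. Of the 4 epithelial markers, Cdh1, Epcam and Krt8 were listed at 0 FPKM in both groups, and Krt18 at 0.201 in Control and 0.514 in LIPUS. Among 7 osteocyte markers, 3 were measured, with a median log2 ratio of 0.44. Of these, 1 was at least 2-fold higher, beside 3.40% of all measured genes. Gja1 and Pdpn were abundant, with 176 FPKM in Control and 170 in LIPUS (-0.06) for Gja1 and 295 and 402 (0.44) for Pdpn. Dmp1, the gene past 2-fold, was low (3.04 FPKM in Control and 7.65 in LIPUS, 1.33). Phex had 0.190 FPKM in LIPUS only, and Sost, Mepe and Fgf23 were listed at 0 in both groups. The summed FPKM of the osteocyte list was 475 in Control and 579 in LIPUS. Ptprc, Cdh5, Myog and Sox10, which mark blood, endothelial, muscle and neural lineages, were listed at 0 in both groups. The remaining marker of blood cells, Cd68, had 5.32 FPKM in Control and 1.72 in LIPUS, that of endothelium, Pecam1, 0.496 and 0, that of muscle, Acta1, 1.97 and 5.62, and that of neurons, Tubb3, 0.687 and 1.02. The part of such differences in the values of the members was not tested. In bulk RNA, fewer cells that express a gene and less RNA of it per cell cannot be told apart.

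Snai2 and Foxq1 were the members that differed by more than 2-fold, and both were lower after LIPUS. Snai2 had 18.6 FPKM in Control and 6.42 in LIPUS, 2.90 times less (log2 ratio -1.54), and Foxq1 had 8.92 and 2.58, 3.45 times less (-1.79). The remaining 8 members lay between -0.25 and 0.38. No member was more than 2-fold higher.

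**Figure D1:**
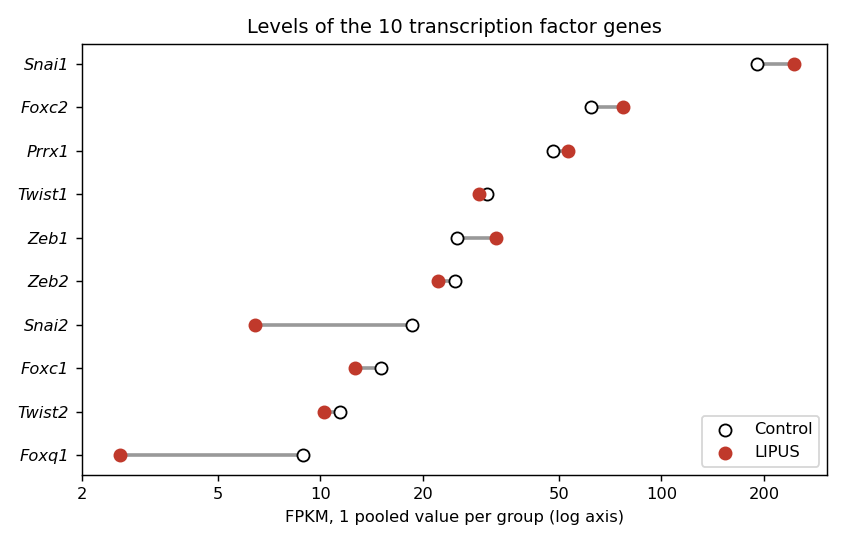
FPKM of the 10 genes (log axis), ordered by the Control level, with open circles for Control, filled circles for LIPUS and a line between the 2 values of a gene; each is a single pooled value per group with no error. Snai2 (18.6 and 6.42) and Foxq1 (8.92 and 2.58) have the long lines, and Snai1 is the most abundant gene in both groups.

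To set this count against the background, a gene was called measured when it reached 1 FPKM in a group and was above 0 in both, which held for 11777 genes and for all members. Of these genes, 3.51% were at least 2-fold lower with LIPUS and 3.40% at least 2-fold higher. These shares are the background for every count past 2-fold in a list or among neighbouring genes, also where that count is 0. The share depended on the level, since among the 8950 genes with 5 FPKM or more in a group, which include all 10 members, 1.28% were 2-fold lower and 1.36% 2-fold higher. At 5 FPKM, 29 genes had a ratio as low as that of Snai2 or lower, and 17 as low as that of Foxq1 or lower. Foxq1 reached 5 FPKM in Control alone, so its place in this set rests in part on the difference itself, whereas Snai2 was above 5 FPKM in both groups. The median log2 ratio of the members was -0.12, against -0.0014 for all measured genes. The median absolute log2 ratio was 0.28 over the members and 0.18 over the genes with 5 FPKM or more. The 8 members other than Snai2 and Foxq1 were all within 2-fold. Zeb1 had the largest absolute log2 ratio of the 8 (0.38). Of the genes with 5 FPKM or more, 76.7% had an absolute log2 ratio no larger than that of Zeb1.

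**Figure D2:**
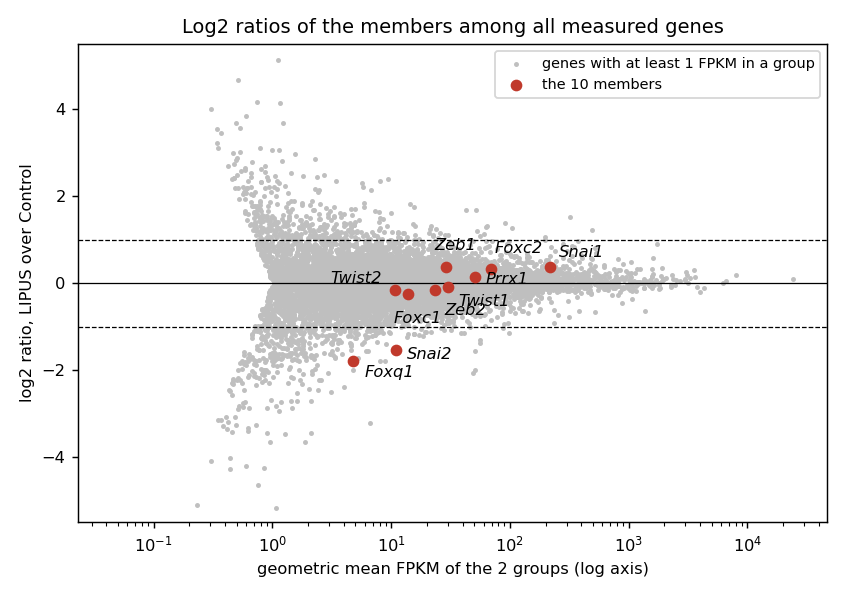
Log2 ratio of LIPUS over Control against the geometric mean FPKM of the 2 groups (log axis) for all 11777 measured genes (grey) and the 10 members (red), with dashed lines at 2-fold; 3 grey genes lie outside the plotted range of ratios. Ratios of low genes scatter widely, and Snai2 (-1.54) and Foxq1 (-1.79) lie below the lower dashed line while the other members lie near 0.

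In the Snail family, the 2 members differed in level and in the direction of their ratios. Snai1 was the most abundant of all 10 genes, with 190.5 FPKM in Control, rank 458 of all genes in that group, and 244 FPKM in LIPUS. Its ratio of 0.36 went the other way from that of Snai2. Snai1 mRNA was thus 10.2 times as abundant as Snai2 mRNA in Control and 38.1 times in LIPUS, on the per-length scale of FPKM. Because Snai1 outweighed Snai2, their summed FPKM was higher in LIPUS, 251 against 209 (log2 ratio 0.26). Snai1 alone made up 43.7% of the summed FPKM of the 10 members in Control and 49.8% in LIPUS, and without it that sum was 245 and 246. The third Snail gene, Snai3, was listed at 0 in both groups.

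Snai2 lies on the plus strand of chromosome 16 of GRCm38, from 14705852 to 14709385, with 3 exons, and Snai1 on the plus strand of chromosome 2, from 167538195 to 167542814, also with 3 exons. The coding sequences of these genes, taken from the GENCODE M21 transcripts, are shown because reads from alike stretches could be assigned to either gene. They start alike, with the part that encodes the repressor motif known as SNAG, where 25 of the first 27 coding bases are identical. Capitals mark the bases that differ.
Snai1, coding bases 1 to 27: atgccgcgctccttcctggtcaGgaaG
Snai2, coding bases 1 to 27: atgccgcgctccttcctggtcaAgaaA

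The most alike stretch of 90 bases lies in the part that encodes the zinc fingers, where 78 bases are identical. Capitals again mark the differences.
Snai1, coding bases 493 to 582: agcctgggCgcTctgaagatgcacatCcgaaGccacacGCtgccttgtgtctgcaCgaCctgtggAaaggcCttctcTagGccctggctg
Snai2, coding bases 511 to 600: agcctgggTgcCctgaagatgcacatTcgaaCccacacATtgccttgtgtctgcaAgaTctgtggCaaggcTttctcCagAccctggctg

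The longest run without a difference was the 22 bases at the start. Neither gene had a window of 100 bases, the length of a read, in common with a transcript of any other gene on either strand. Near Snai2, the 3 measured genes within 500 kb were Abcc1 (38.9 FPKM in Control and 47.7 in LIPUS), Fopnl (21.2 and 22.3) and Efcab1 (1.01 and 0.660), and none was past 2-fold. Of the 11 measured genes within 500 kb of Snai1, also none was past 2-fold, and their median log2 ratio was -0.09. They include Cebpb, the gene of a leucine-zipper factor of inflammation and fat cells, at 72.0 and 89.2 FPKM.

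In the Twist family the groups were close. Twist1 had 30.9 FPKM in Control and 29.2 in LIPUS (log2 ratio -0.08), and Twist2, which is also called Dermo1, had 11.4 and 10.2 (-0.16). The proportion of Twist1 to Twist2 mRNA was 2.70 in Control and 2.85 in LIPUS. Their most alike stretch of 90 coding bases lies in the part for the bHLH domain, with 82 identical bases and is shown for comparison with the Snail pair. Differences are in capitals.
Twist1, coding bases 347 to 436: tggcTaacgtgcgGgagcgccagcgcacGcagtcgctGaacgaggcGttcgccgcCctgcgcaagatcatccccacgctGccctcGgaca
Twist2, coding bases 209 to 298: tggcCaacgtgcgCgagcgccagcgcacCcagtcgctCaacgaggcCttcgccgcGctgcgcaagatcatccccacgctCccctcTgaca

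The longest identical run of Twist1 and Twist2 was 23 bases. Of the windows of 100 bases in Twist2 transcripts, 44.8% also occur in an antisense gene, Gm29100, which had 0.370 FPKM in Control and 0.203 in LIPUS. Twist1 had no such window in common with another gene. Twist proteins act with E proteins, and the genes of these partners were at like levels in both groups, with Tcf12 at 86.1 FPKM in Control and 82.9 in LIPUS, Tcf4 at 37.5 and 37.6, and Tcf3 at 35.0 and 33.6. Id proteins lack the basic part and keep E proteins from DNA. The mRNA values of Id1, Id2 and Id3 were lower in LIPUS, all within 2-fold, where 50.1% of all measured genes had a ratio below 0. Id1 had 105 FPKM in Control and 79.8 in LIPUS (log2 ratio -0.39), Id2 91.6 and 65.9 (-0.48), and Id3 56.5 and 40.8 (-0.47). Of the 7 genes for partners and inhibitors, 6 were measured and none was past 2-fold, and Id4 stayed below 1 FPKM.

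Of the Zeb genes, Zeb1 was higher in LIPUS and Zeb2 lower, both within 2-fold. Zeb1 had 25.2 FPKM in Control and 32.8 in LIPUS (log2 ratio 0.38), and Zeb2 had 24.8 and 22.1 (-0.16). The genes thus stood at a proportion of 1.02 in Control and of 1.48 in LIPUS. Their longest identical coding run was 23 bases. Zeb2 overlaps an antisense gene, Zeb2os, with 1.49 FPKM in Control and 1.44 in LIPUS, and 1.02% of the 100-base windows of Zeb2 occur in it. Zeb1 shared 0.922% of its windows with the antisense gene Gm10125, which had 0.203 and 0.262 FPKM. The libraries were stranded according to the methods, but use of the strand in the quantification is not stated there. Reads from such overlaps, also that of Twist2 with Gm29100, may have been given to either gene.

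Among the forkhead members, Foxq1 was lowest in level and furthest from an even ratio. Foxq1 has a single exon on the plus strand of chromosome 13 of GRCm38, from 31556134 to 31560976. It overlaps A530084C06Rik on the opposite strand, with which it shares 65.4% of its 100-base windows, and which was listed at 0 FPKM in both groups. Because use of the strand in the quantification is not stated, reads from this overlap may also have been given to either gene. The part of the overlap in the value of Foxq1 was not tested. Foxc1 lies on the same strand as Foxq1, 246 kb further along, from 31806633 to 31812476, also with a single exon. It had 15.02 FPKM in Control and 12.6 in LIPUS (log2 ratio -0.25). Between them lies a further forkhead gene, Foxf2, with 16.7 and 11.6 FPKM (-0.52). All 3 forkhead genes of this cluster had a ratio below 0, as did 50.1% of all measured genes, and Foxq1 and Foxc1 were selected with their values known. Foxq1 alone was past 2-fold. The other measured genes within 500 kb of Foxq1 were higher, namely Gmds, an enzyme of fucose metabolism, with 48.9 and 58.9 FPKM (0.27), and 1700018A04Rik with 1.18 and 1.60 (0.44). Foxc1 mRNA was 1.68 times as abundant as Foxq1 mRNA in Control and 4.89 times in LIPUS.

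Foxc2 had the second highest level of the 10 genes, 62.1 FPKM in Control and 77.2 in LIPUS (log2 ratio 0.31). Its proportion to Foxc1 was 4.13 in Control and 6.11 in LIPUS. Foxc2 has a single exon on the plus strand of chromosome 8 of GRCm38, from 121116171 to 121118895. In the table, however, its locus spans 4435 kb and is the same for 210 genes. Of all genes in the table, 45.1% share a locus with another gene. An overlapping gene on the same strand, Gm20388, had 4.08 FPKM in Control and 21.5 in LIPUS (2.39), although none of the 100-base windows of Foxc2 occurs in its transcripts. What part Gm20388 has in the value of Foxc2 was not tested. Of the 59 measured genes with this locus, 2 were at least 2-fold lower (3.51% of all measured genes) and 5 at least 2-fold higher (3.40% of all), with a median of -0.09. The forkhead gene Foxf1, 28.03 kb from Foxc2, had 14.0 FPKM in Control and 16.7 in LIPUS (0.25), and Foxl1 stayed below 1 FPKM in both groups.

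Foxc1 and Foxc2 are nearly identical where they encode the end of the forkhead domain, and the stretch is shown because it is the closest match among the 4 pairs of genes printed here. They differ at 1 of 90 bases, in capitals, and are identical over 53 bases in a row.
Foxc1, coding bases 439 to 528: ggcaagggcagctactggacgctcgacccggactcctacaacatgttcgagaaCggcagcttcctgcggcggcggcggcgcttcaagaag
Foxc2, coding bases 418 to 507: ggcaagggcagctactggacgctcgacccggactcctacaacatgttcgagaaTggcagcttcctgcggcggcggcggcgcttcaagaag

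Foxq1 was compared with Foxc1 only. Its closest stretch to Foxc1, also in the forkhead domain, had 69 of 90 bases in common, as printed here with the differences in capitals, and the longest identical run was 20 bases.
Foxc1, coding bases 334 to 423: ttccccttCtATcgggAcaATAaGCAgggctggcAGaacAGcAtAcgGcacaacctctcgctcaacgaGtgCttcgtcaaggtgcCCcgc
Foxq1, coding bases 445 to 534: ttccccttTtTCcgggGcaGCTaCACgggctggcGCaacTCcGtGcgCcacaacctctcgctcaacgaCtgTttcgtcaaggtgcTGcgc

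The forkhead family as a whole had 44 genes in the table, of which 20 were measured and 19 were listed at 0 in both groups. Apart from the members, 17 were measured, with a median log2 ratio of -0.12. None of these 17 was 2-fold lower, and Foxn1, a factor of thymus and skin epithelium with 0.692 FPKM in Control and 1.57 in LIPUS (1.18), was 2-fold higher. These counts are near the shares of all measured genes (3.51% lower and 3.40% higher), and Foxn1 reached 1 FPKM in LIPUS alone. The most abundant were Foxp1 (98.0 FPKM in Control and 89.9 in LIPUS) and Foxs1, whose level was 53.2 FPKM in Control and 87.8 in LIPUS (0.72). At the other side, Foxj2 had 13.1 and 7.96 FPKM (-0.72). Foxq1 thus had the lowest ratio of the 20 measured forkhead genes.

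**Figure D3:**
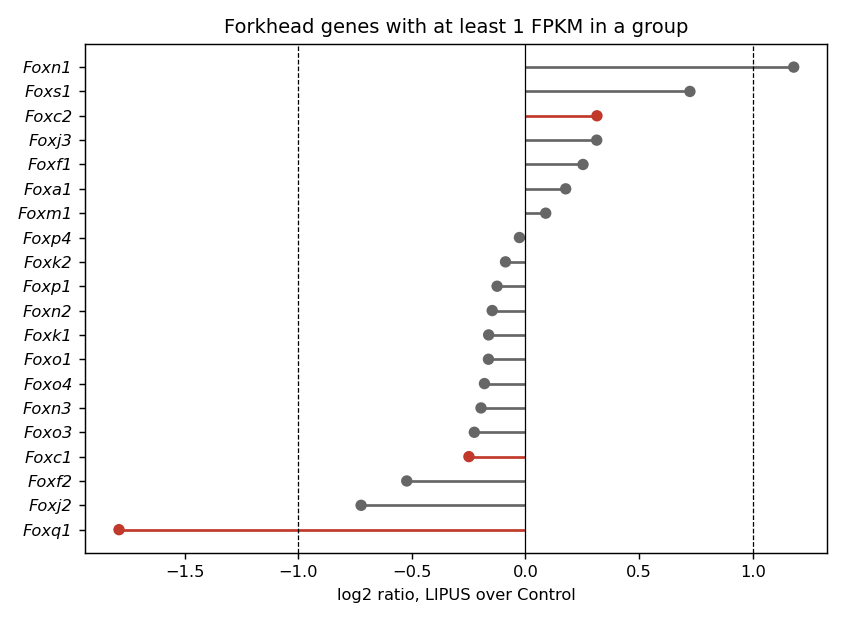
Log2 ratio of LIPUS over Control for the 20 forkhead genes with at least 1 FPKM in a group, members in red, with dashed lines at 2-fold. Foxq1 (-1.79) lies beyond the lower line and Foxn1 (1.18), which is under 2 FPKM in both groups, beyond the upper one.

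Prrx1 had 48.2 FPKM in Control and 53.2 in LIPUS (log2 ratio 0.14), the third highest level of the 10 genes in Control. Of 14 relatives of the Snail, Twist and Prrx factors, 8 were listed at 0 in both groups and 4 were measured, none past 2-fold. Prrx2, the closest relative of Prrx1, had 22.2 FPKM in Control and 29.9 in LIPUS (0.43), the tendon factor Scx, a bHLH protein, 8.79 and 12.8 (0.54), the homeodomain factor Shox2 27.5 and 30.8 (0.16), and Hand1, a bHLH factor of heart and placenta, 18.5 and 10.3 (-0.85).

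Epithelial genes, epithelial regulators and mesenchymal genes were compared as lists, which were also put together with earlier results of these data known. Whether these factors act on the listed genes was not tested. Of 25 epithelial genes, such as those of tight junctions and keratins, 16 were listed at 0 in both groups and 4 were measured, none past 2-fold. Tjp1, which encodes the junction scaffold ZO-1 and is expressed in many cell types, had 17.0 FPKM in Control and 17.3 in LIPUS, and Patj had 5.90 and 3.91 (log2 ratio -0.59). The other two were Muc1, a mucin, with 3.46 and 2.30 FPKM (-0.59), and Jup (plakoglobin), with 1.85 and 2.62 (0.50). Of 11 epithelial regulators, 3 were measured. Klf4 had 21.7 and 19.3 FPKM, Grhl1 had 1.39 and 0.613 (-1.18, past 2-fold), and Foxa1 had 1.27 and 1.43. Grhl1 reached 1 FPKM in Control alone, and 3.51% of all measured genes were at least 2-fold lower. Ovol2 and Esrp1 were listed at 0 in both groups, and Ovol1 at 0 in Control and 0.0796 in LIPUS.

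Of 24 mesenchymal genes, 21 were measured, 3 were at least 2-fold higher, 1 was at least 2-fold lower and 17 were within 2-fold, with a median of 0.08, where 3.40% of all measured genes were at least 2-fold higher and 3.51% lower. The 3 higher genes were Acta2 (smooth muscle actin), with 4.81 FPKM in Control and 12.7 in LIPUS (1.40), Tagln (transgelin, which binds actin), with 10.1 and 25.1 (1.32), and Fap, a surface protease of activated fibroblasts, with 4.34 and 9.12 (1.07). Postn (periostin), with 2.94 FPKM in Control and 1.11 in LIPUS (-1.41), was lower. The most abundant genes of the list were S100a4, with 4306 FPKM in Control and 3735 in LIPUS, and Vim, and both were within 2-fold. Cdh2, the gene of N-cadherin, and Thy1 were listed at 0 in both groups, and Cdh11 had 0.0486 FPKM in Control and 0.0436 in LIPUS.

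The proteins that work with these factors are encoded by genes that were mostly even. All 11 corepressor genes were measured, 10 were within 2-fold, and their median log2 ratio was -0.03. Hdac2, a histone deacetylase, had 68.8 FPKM in Control and 68.9 in LIPUS, Hdac1 63.6 and 62.5, and Ctbp1, a partner of Zeb proteins, 55.2 and 53.9. The exception was Sin3a, a scaffold for histone deacetylases, with 26.1 FPKM in Control and 11.4 in LIPUS (-1.19), which makes 1 of 11 at least 2-fold lower beside 3.51% of all measured genes. Of the listed genes that control the stability of Snail proteins, the symbol Lats2 stands on 2 lines, with 15.03 and 18.9 FPKM on the first (ENSMUSG00000021959) and 1.11 and 0.316 on the second (ENSMUSG00000114942, -1.82). The latter was the only line of the 9 measured past 2-fold, beside 3.51% lower among all measured genes, and it reached 1 FPKM in Control alone. Gsk3b, the kinase that marks Snai1 for degradation, had 14.7 FPKM in Control and 16.3 in LIPUS (0.14).

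Signals known to act on these factors were measured for 20 of 24 genes, none past 2-fold, with a median of 0.08. Among all measured genes, 3.51% were at least 2-fold lower and 3.40% at least 2-fold higher. Ctnnb1 (beta-catenin) had 120 FPKM in Control and 130 in LIPUS, and Hif1a 109 and 127. The ligand Tgfb1 had 80.9 and 92.0 FPKM (0.19), its receptor gene Tgfbr1 5.00 and 6.95 (0.47), and Smad2, which relays the signal, 25.3 and 17.0 (-0.57). The Notch target Hes1 had 10.7 FPKM in Control and 19.0 in LIPUS, the highest ratio of the list (0.82).

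**Figure D4:**
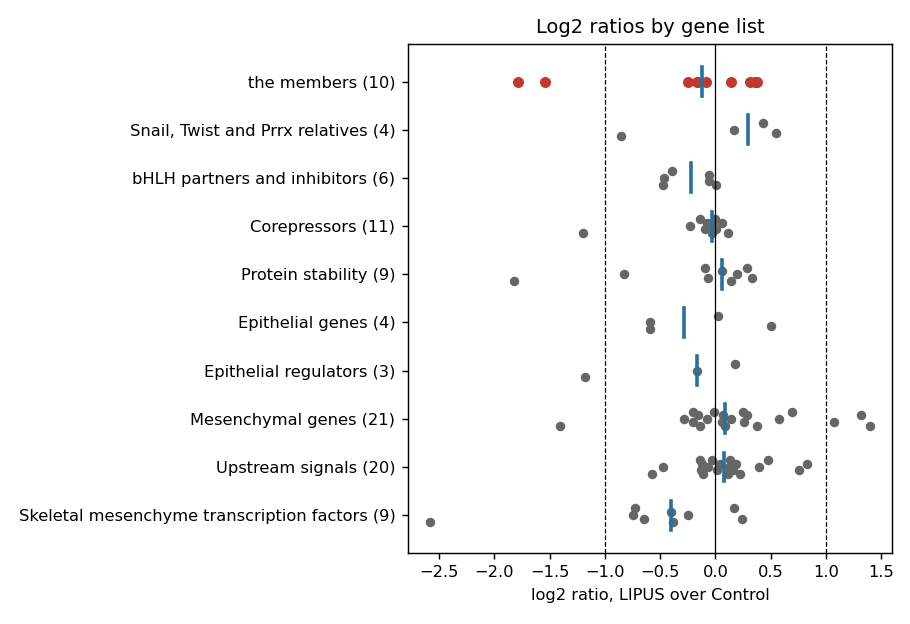
Log2 ratio of LIPUS over Control for the members (red) and for the measured genes of 9 lists (grey, their number in brackets), with the median of each as a blue bar and dashed lines at 2-fold. The medians lie between -0.40 for skeletal mesenchyme transcription factors and 0.30 for the relatives of the Snail, Twist and Prrx factors, and Snai2 and Foxq1 stand apart from the other members.

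The promoters of 6 of the 10 members were taken from RefSeq on GRCm38.p6, from 250 bases before to 50 after each start. There were 9 promoters in all, with several for Zeb2. They are described because Snail, Twist and Zeb proteins bind E-boxes. The letters CANNTG, read on both strands, occur in 72.3% of the 32851 promoters of this length, and the letters CAGGTG, a form of CANNTG that Snail and Zeb proteins bind, occur in 20.2% of them, again with both strands read. Of the 6 members searched, Snai1 was the only gene with such a match, a single CAGGTG. The promoters of Foxc1, Prrx1, Twist1, Twist2 and Zeb2 held no CANNTG. No promoter was found for Snai2, Foxq1 and Foxc2, and Zeb1 was left out by choice, so these members were not searched. The forkhead core TGTTTAC, found in 3.65% of all promoters on both strands, was in none of the 9. A match is a string of letters and not a site of binding, and its absence concerns these windows alone. The 250 bases before the start of Snai1 are printed with the element in capitals, which reads CACCTG on this strand, from the window chr2:167537945-167538244 on the plus strand.
Snai1 promoter: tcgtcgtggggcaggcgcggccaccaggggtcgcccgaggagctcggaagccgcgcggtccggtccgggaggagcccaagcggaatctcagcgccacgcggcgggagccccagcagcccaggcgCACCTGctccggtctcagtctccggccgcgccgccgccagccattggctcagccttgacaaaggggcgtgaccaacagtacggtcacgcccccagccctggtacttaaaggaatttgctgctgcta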

How the data were processed

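RNA of 3 LIPUS-treated and 3 control samples of MLO-Y4 cells was sequenced from stranded mRNA libraries. Per the labels and the methods, the tools were Trimmomatic 0.36 for trimming, Bowtie 2.2.6.0 within TopHat 2.1.0 for alignment (GRCm38), and Cufflinks with Ensembl transcripts, from which the authors deposited FPKM, 1 pooled value per gene and group. The Cufflinks version in the submitters' processing notes, 2.1.1, is not that of the methods. The table also holds the authors' fold change, test statistic, p-value, q-value and call, which were not used. Its status column was read only to see that Cuffdiff had tested all 10 members, among 8145 genes tested.

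Samples were grouped by their titles. Log2 ratios were computed without a pseudocount over genes with at least 1 FPKM in a group and values above 0 in both, and an absolute log2 ratio of 1 or more (2-fold) was counted. From a single value per group no test, SD or counting interval could be computed anew, and the authors' test was not used. The ratio step was tested on simulated data. The members and lists were chosen with earlier results of these data known. Genes named are the members, list genes past 2-fold, the most abundant list genes, genes within 500 kb, and the 3 genes nearest to Snai2 and to Foxq1 in log2 FPKM, to which were added, after their values were seen, further list genes with a known role. Gene positions and transcripts are from GENCODE M21, and promoters from RefSeq. Coding sequences are the longest open reading frames whose length equals the annotated one. Python 3.11.15, numpy 2.4.6, pandas 2.3.3 and matplotlib 3.10.9 were used. The alternatives were pseudocounts of 1 and 0.1 FPKM, centring, a 1.5-fold limit, no filter and a filter of 5 FPKM.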

Additional observations from a re-analysis of the deposited data

How the results depend on the processing

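The number of members past 2-fold was 2 under every alternative computed, which were pseudocounts of 1 and 0.1 FPKM, centring on the median of all measured genes, a limit of 1.5-fold, no filter on low values, a filter of 5 FPKM and, chosen after seeing the data, leaving out Foxc2. Some of these could not change the count. All members reached 5 FPKM in a group, so no filter and the filter of 5 FPKM kept the same members. Foxc2 was not past the fold. Centring moved all ratios alike, by a median of -0.0014. The median log2 ratio of the members was -0.12 and became -0.16 without Foxc2. With a pseudocount of 1 FPKM, the log2 ratio of Foxq1 was -1.47 and that of Snai2 -1.40, and no ratio of another member moved by more than 0.017. The spread between replicates is unknown, so a shift under 1.5-fold was taken as none. No paired analysis was possible because the table holds a single value per group, and for the same reason no library, including the control library that stood apart, could be left out. Low values limit Foxq1 most, at 2.58 FPKM in LIPUS.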

Other observations

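Of 16 listed transcription factors of skeletal mesenchyme, 7 were listed at 0 in both groups and 9 were measured, of which 1 was past 2-fold. Among the 9, 7 had a ratio below 0, and the median log2 ratio was -0.40, while 50.1% of all measured genes had a ratio below 0. Runx2, the main regulator of osteoblast formation, had 24.4 FPKM in Control and 14.8 in LIPUS (-0.72), and Tbx18 had 10.1 and 6.07 (-0.74). Sp7 (osterix), which acts after Runx2, had 5.86 FPKM in Control and 3.75 in LIPUS (-0.64). Dlx5 was the gene past 2-fold, with 1.13 FPKM in Control and 0.188 in LIPUS, and it counts as measured through Control alone. The most abundant gene of the list, Dlx3, had 144 and 169 FPKM (0.24). None of these values has an error, and 3.51% of all measured genes were at least 2-fold lower.

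The genes most like Snai2 in both groups, by distance on the log2 FPKM scale over the 2 group values, were Iigp1 (14.6 FPKM in Control and 6.61 in LIPUS), Gm15446 (14.8 and 5.60) and Ccl7 (14.1 and 6.48), at distances of 0.357 to 0.405. Those most like Foxq1 were Phactr1 (9.48 and 2.36), Gm17201 (9.57 and 2.89) and Magi1 (7.78 and 2.66), at distances of 0.157 to 0.201. With 2 values per gene, such likeness describes level and ratio alone.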
